A study of Homo sapiens with 6 samples.

Results

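The 10 genes described here encode transcription factors that specify, or take part in, the B-cell lineage: PAX5, EBF1, TCF3, IKZF1, IKZF3, LEF1, ERG, SOX4, BACH2 and FOXO1. They were taken by symbol from 62703 counted gene IDs, each symbol matched 1 ID, and all 10 were present. The cells were SEM, an established human line grown from a B-cell precursor acute lymphoblastic leukaemia (B-ALL) that carries a KMT2A::AFF1 fusion. In the knock-down group (KD, 3 libraries) cells received paired Dicer-substrate siRNAs, short duplexes for RNA interference, that target the back-splice junction of the fusion-derived circular RNA AK_8_2. In the negative control group (NC, 3 libraries) they received a commercial non-targeting duplex. Both groups were transfected with the same lipid reagent, in reverse and again in forward orientation 24 h later, so no library comes from untreated SEM cells, and all 6 come from 1 cell line. A gene count does not measure the circle, so the degree of silencing is not known from these values.

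B-lineage factors act as a hierarchy. TCF3 (whose splice forms E12 and E47 are the E2A proteins) and EBF1 open and activate early B-cell genes, PAX5 then fixes commitment and shuts down alternative programmes, and the Ikaros proteins IKZF1 and IKZF3 restrain growth at the pre-B stage. FOXO1, kept out of the nucleus by AKT signalling, works with EBF1 and TCF3 at genes of recombination and of the interleukin 7 receptor, and BACH2 represses transcription from mid pre-B to germinal-centre stages. LEF1 is the HMG-box effector of Wnt signalling, SOX4 is an HMG-box factor needed for pro-B cells, and ERG is an ETS factor of stem and early B cells. Deletions or fusions of PAX5, EBF1, IKZF1, ERG and TCF3 are recurrent lesions of B-ALL.

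Gene counts totalled 14750579 to 26694160 per library. In each group the library numbered 1 stood apart: 48.6% and 50.03% of their records lay outside annotated features, against 11.3% to 17.3% in the other 4 libraries, and in KD replicate 3 multiply aligned records made up 31.5%. The defining markers of a B-cell precursor were high for CD79A (276 ± 51.2 TPM, SD, n = 6) and IGLL1 (94.8 ± 21.6), but outside replicate 1 DNTT and RAG1 stayed under 1 TPM. TPM is a count divided by exon length and scaled to the same total in each library, which allows levels of different genes to be compared. Outside replicate 1, 5 of 6 T-cell markers, 5 of 6 mature B and plasma cell markers, 4 of 6 myeloid markers and 4 of 4 erythroid markers were under 1 TPM. The exceptions were TRAC (224 to 253 TPM over the 6 libraries), IRF4 (27.9 to 39.2), CEBPA (105 to 159) and LYZ (7.16 to 8.996). Summed over a list, markers gave 596 to 707 TPM in KD and 579 to 685 in NC for B-cell precursors, 33.4 to 36.8 and 30.7 to 42.4 for mature B cells, and 234 to 244 and 225 to 269 for T cells. They gave 125 to 167 and 133 to 161 TPM for myeloid cells, and 0.291 to 6.34 and 0.154 to 6.35 for erythroid cells, where the high values were those of replicate 1.

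The factors fell into a high, a middle and a low range of level. PAX5, LEF1, TCF3 and EBF1 had means of 323, 245, 193 and 132 TPM, SOX4, ERG and IKZF1 lay at 56.5, 47.7 and 44.3 TPM, and IKZF3, BACH2 and FOXO1 at 3.89, 1.495 and 0.391 TPM. Without replicate 1 the means of these last 3 were 3.32, 0.882 and 0.295 TPM. All 7 genes of the high and middle ranges were above 40 TPM in every library, and the 3 others were below 6 TPM in every library. The steps between these ranges were wider than the spread over the 6 libraries: EBF1 exceeded SOX4 by 2.02 to 2.47 times within a library, and IKZF1 exceeded IKZF3 by 8.35 to 14.98 times. In bulk RNA a difference in RNA per cell cannot be told apart from one in the number of cells that express a gene.

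**Figure D1:**
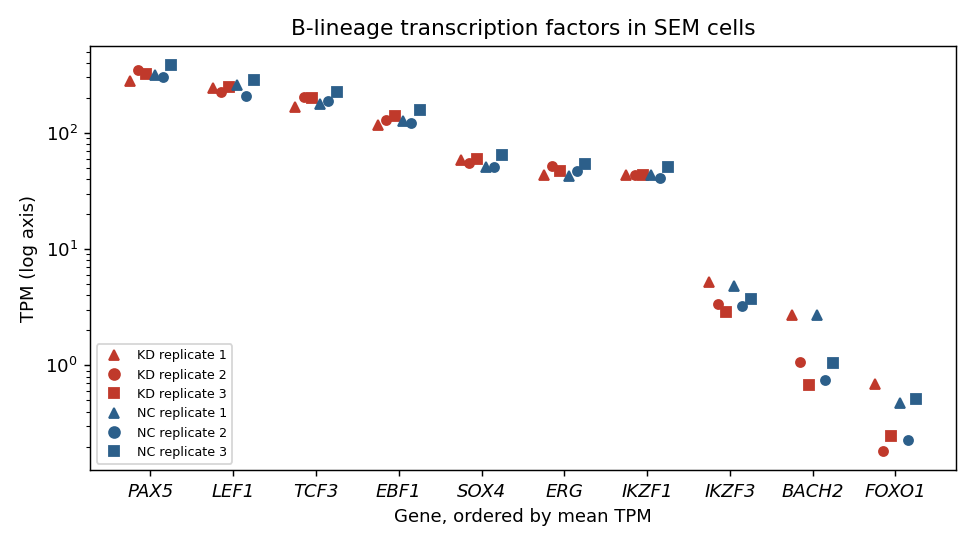
Level of each factor in each library, in TPM on a log axis, with KD in red, NC in blue and a marker shape for each replicate number. The points of PAX5 to IKZF1 stay above 40 TPM and those of IKZF3, BACH2 and FOXO1 below 6 TPM, and the replicate 1 triangles of both groups lie above the other points for IKZF3 and BACH2, while for FOXO1 NC replicate 3 is above NC replicate 1.

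PAX5, the factor of B-cell commitment (ENSG00000196092.14, chromosome 9, 36833275 to 37034185, minus strand, GRCh38), was the most abundant member. It had 279, 345 and 319 TPM in KD replicates 1, 2 and 3 and 313, 300.4 and 382 TPM in NC replicates 1, 2 and 3. NC replicate 3 was the highest and KD replicate 1 the lowest, and the groups overlapped. Of 19831 protein-coding genes with an annotated length, 98.6% had a lower mean level, and PAX5 ranked between position 249 and 310 in the 6 libraries. Its paralogs of the same PAX subgroup, PAX2 and PAX8, which act in kidney and thyroid, had at most 0.0666 and 0.857 TPM outside replicate 1.

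EBF1 (ENSG00000164330.17, chromosome 5, 158695916 to 159099761, minus strand), a pioneer factor of the early B cell, had 117, 130 and 139 TPM in KD and 125, 121 and 159 TPM in NC. It was by far the highest of the EBF genes. Outside replicate 1 the highest values of EBF2, EBF3 and EBF4 were 0.0731, 0.336 and 0.140 TPM, and EBF1 exceeded each of them by at least 29.7 times in every library, replicate 1 included.

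TCF3 (ENSG00000071564.19, chromosome 19, 1609290 to 1652605, minus strand) had 168, 203 and 199 TPM in KD and 176, 187 and 226 TPM in NC. Among the E proteins, which bind E-box DNA as dimers, it exceeded TCF12 (60.1 ± 7.48 TPM, SD, n = 6) by 2.49 to 3.83 times within a library. TCF4, the third E protein, had 0.781 to 1.84 TPM from 198 to 296 counts over 27828 annotated exon bases. Its counts were also below the 3257 to 4933 of TCF12, and the part of exon length in its low TPM was not tested. The ID proteins, which lack a DNA-binding region and hold E proteins off DNA, were unequal: ID3 had 277 ± 17.8 TPM (SD, n = 6), above the mean of TCF3, ID1 had 91.2 ± 2.72, ID2 43.6 ± 6.71, and ID4 at most 0.0552 TPM outside replicate 1.

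LEF1 (ENSG00000138795.10, chromosome 4, 108047545 to 108168956, minus strand) had 244, 226 and 248 TPM in KD and 260, 207 and 282 TPM in NC. It was the dominant gene of its family in each library, 5.13 to 8.39 times above TCF7 and 27.1 to 52.6 times above TCF7L2. TCF7L1 reached 0.174 TPM outside replicate 1. Its partner beta-catenin, encoded by CTNNB1, had 55.1 ± 3.83 TPM (SD, n = 6). An antisense gene, LEF1-AS1, shares 279 exon bases with LEF1. LEF1-AS1 had 208 to 303 counts per library, beside 7022 to 12215 counts of LEF1. The strand setting is not stated, so how reads over the shared bases were counted is not known.

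SOX4 (ENSG00000124766.7, chromosome 6, 21592768 to 21598619, plus strand), a gene with a single exon, had 58.2, 54.9 and 59.8 TPM in KD and 50.8, 50.6 and 64.5 TPM in NC. Its closest relatives were transcribed at similar levels. SOX11, an HMG-box factor used as a marker in mantle cell lymphoma, had 64.1 ± 7.17 TPM and was above SOX4 in 5 of 6 libraries. SOX12 had 47.2 ± 11.7 TPM (SD, n = 6 for both) and was below SOX4 in all 6. The ranges of both overlapped that of SOX4.

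ERG (ENSG00000157554.20, chromosome 21, 38380027 to 38661780, minus strand) had 43.1, 51.5 and 47.2 TPM in KD and 42.5, 47.2 and 54.4 TPM in NC. Replicate 1 was lowest in both groups. FLI1, its nearest relative among the ETS factors, was above ERG in all 6 libraries by 1.14 to 1.28 times (56.9 ± 4.80 TPM), although their ranges overlapped. ETS2 was the highest of the relatives examined at 137 ± 18.5 TPM, ETS1 had 16.5 ± 1.40 TPM (SD, n = 6 each), and FEV had no count in 3 of the 4 libraries outside replicate 1.

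IKZF1 (Ikaros, ENSG00000185811.21, chromosome 7, 50304068 to 50405101, plus strand) had 43.8, 43.6 and 43.2 TPM in KD and 43.4, 40.9 and 50.7 TPM in NC. IKZF3 (Aiolos, ENSG00000161405.17, chromosome 17, 39757715 to 39864188, minus strand) had 5.25, 3.40 and 2.88 TPM in KD and 4.84, 3.27 and 3.72 TPM in NC, from 223 to 327 counts per library. Replicate 1 was the highest of each group for IKZF3, and the groups overlapped for both genes.

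Ikaros proteins form mixed dimers, and the order of the family in SEM by mean TPM placed IKZF3 last. Its range (2.88 to 5.25 TPM) overlapped that of IKZF4 (4.94 to 6.96 TPM). IKZF2 (Helios) had 32.8 ± 3.85 TPM, IKZF5 20.0 ± 1.503 and IKZF4 6.05 ± 0.833 (SD, n = 6 each). Within a library IKZF2 exceeded IKZF3 by 6.02 to 10.9 times, with ranges that did not overlap, and IKZF1 exceeded IKZF2 by 1.26 to 1.42 times. Cereblon (CRBN), the adaptor through which lenalidomide and related drugs direct IKZF1 and IKZF3 to degradation, had 13.5 ± 1.14 TPM.

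Because IKZF1 and IKZF3 are related, the longest run of bases that their longest protein-coding transcripts share is printed, to show how far a read could be misplaced between them. The stretches below are coding sequence of the C-terminal zinc fingers, through which Ikaros proteins dimerise, and capitals mark the shared run of 26 bases (chr7:50400505-50400530, plus strand, and chr17:39765887-39765912, minus strand, GRCh38, GENCODE 29 transcripts), which lies in exon 8 of the IKZF1 and exon 9 of the IKZF3 transcript.
IKZF1: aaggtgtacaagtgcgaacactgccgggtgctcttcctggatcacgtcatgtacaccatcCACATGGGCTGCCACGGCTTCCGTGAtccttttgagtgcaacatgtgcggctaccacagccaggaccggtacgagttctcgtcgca
IKZF3: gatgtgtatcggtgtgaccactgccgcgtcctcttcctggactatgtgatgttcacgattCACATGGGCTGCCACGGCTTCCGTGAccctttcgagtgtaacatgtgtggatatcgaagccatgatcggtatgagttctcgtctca
Over these 146 bases the genes differed at 28 positions (80.8% identity). A read longer than the run of 26 bases could therefore be told apart between these transcripts.

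BACH2 and FOXO1 were the members at the lowest levels. BACH2 (ENSG00000112182.16, chromosome 6, 89926529 to 90296908, minus strand) had 155, 100 and 51 counts in KD and 134, 67 and 82 in NC, that is 2.73, 1.06 and 0.674 TPM in KD and 2.72, 0.752 and 1.039 TPM in NC. Both replicate 1 libraries lay above all 4 others, and the groups overlapped. BACH1, a widely expressed relative that also represses targets through small MAF partners, was 9.84 to 32.3 times higher (25.9 ± 2.46 TPM, SD, n = 6).

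FOXO1 (ENSG00000150907.10, chromosome 13, 40469953 to 40666597, minus strand) had 25, 11 and 12 counts in KD and 15, 13 and 26 in NC. These equal 0.691, 0.184 and 0.249 TPM in KD and 0.477, 0.229 and 0.517 TPM in NC. Exact Poisson 95% intervals cover counting error only. In KD they ran from 0.0916 to 0.328 TPM in replicate 2, the lowest, and from 0.447 to 1.02 TPM in replicate 1, the highest. In NC they ran from 0.122 to 0.392 TPM in replicate 2, the lowest, and from 0.338 to 0.758 TPM in replicate 3, the highest. Over the 6 libraries its rank among the 19831 protein-coding genes ran from 11418 to 18282. FOXO3, which shares the forkhead domain and regulation by AKT, was the abundant member of the family at 43.7 ± 4.17 TPM (SD, n = 6), 57.9 to 241 times above FOXO1 within a library. FOXO4 had 12.2 ± 1.63 TPM, 16.6 to 60.8 times above FOXO1, and FOXO6 was below FOXO1 in 4 of 6 libraries, its values above FOXO1 being those of replicate 1.

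The contrast between FOXO1 and its relatives depends on reads being placed correctly. The longest run of bases shared by the FOXO1 transcript and FOXO3 was 25 bases. Of the 5686 windows of 50 bases in the FOXO1 transcript, 4 (0.0703%) occurred in a transcript of any other gene, all of them in the pseudogene FOXO1B, which had 0 to 2 counts outside replicate 1 and 17 and 20 in replicate 1. These windows cover annotated transcripts only, and the loss of FOXO1 reads to alignment in several places was not tested. LINC00598 overlaps FOXO1 on the same strand by 269 exon bases. A read there can count for neither gene, and how such reads were handled is not stated. LINC00598 had 2 to 4 counts outside replicate 1 and 45 and 53 in replicate 1. It shared no window of 50 bases with the FOXO1 transcript used here. For the other members the share of such windows was 0% for EBF1, TCF3 and ERG and 0.288% to 6.83% for the others, and the overlapping antisense genes of PAX5, IKZF1, LEF1 and SOX4 were the only other genes hit for those 4. BACH2 (3.43%) and IKZF3 (2.17%) shared windows with 80 and 387 genes.

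**Figure D2:**
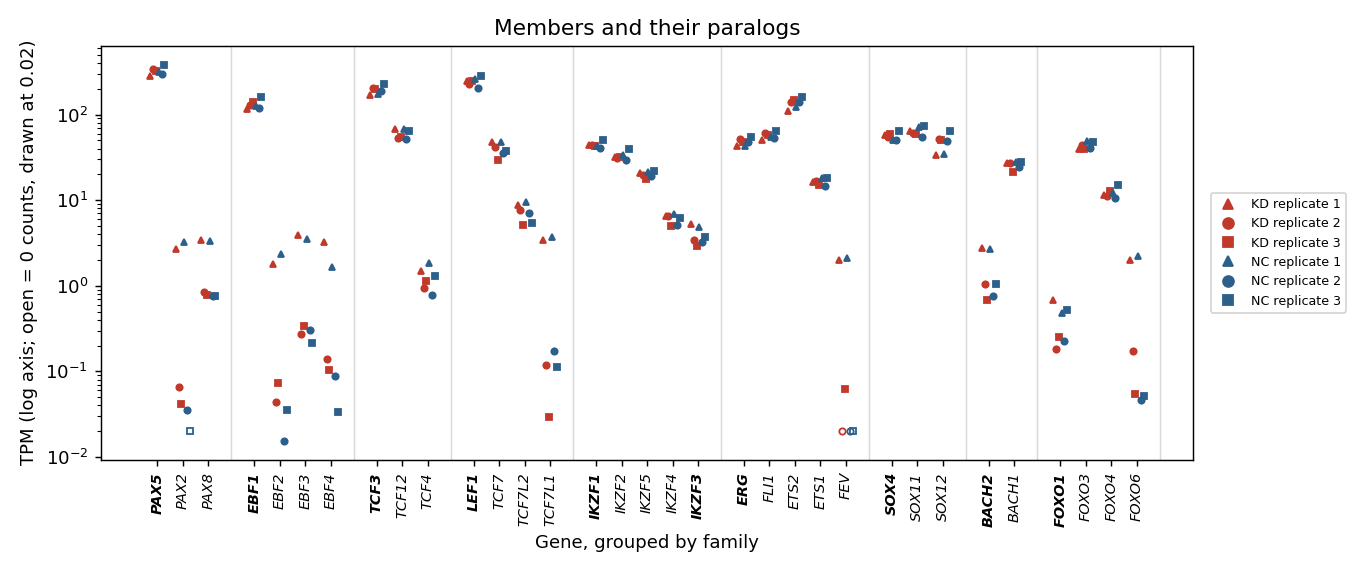
Levels of the members (bold names) and of their paralogs in each library, in TPM on a log axis; open symbols are libraries with 0 counts, drawn at 0.02. EBF1, PAX5, TCF3 and LEF1 lead their families, whereas BACH1 and FOXO3 lie above BACH2 and FOXO1. IKZF3 has the lowest mean of the Ikaros genes, with a range that overlaps that of IKZF4.

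The order of neighbouring members was firm in some places only. TCF3 and EBF1, EBF1 and SOX4, IKZF1 and IKZF3, and IKZF3 and BACH2 had ranges over the 6 libraries that did not overlap. PAX5 and LEF1, LEF1 and TCF3, SOX4 and ERG, and BACH2 and FOXO1 overlapped in range although the first of each was higher in 6 of 6 libraries. ERG exceeded IKZF1 in 4 of 6 libraries and did not differ from it beyond the spread. With the length of the longest transcript in place of all exon bases, LEF1 (298 TPM) moved above PAX5 (277 TPM), and IKZF1 (60.7 TPM) and ERG (56.8 TPM) moved above SOX4 (44.7 TPM), so the order within the high and within the middle range depends on which transcript is assumed.

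In normalised counts, the mean of the replicate 1 libraries was above that of the other 4 for the low members and below it for the 7 others. In TPM, LEF1 was not lower: its mean was 252 in replicate 1 and 241 in the other 4 libraries. On the log2 scale of CPM, which are counts scaled to the normalised library size, the mean of both replicate 1 libraries differed from the mean of the other 4 by 1.37 for BACH2, 0.73 for FOXO1 and 0.35 for IKZF3, and by -0.50 (TCF3) to -0.18 (LEF1) for the 7 others. The same was seen over the table: 90.1% of 3169 tested protein-coding genes under 5 TPM were higher in replicate 1, against 11.2% of 2942 at 40 TPM or more. To give the background of replicate 1, protein-coding genes with at least 1 kb of exon and 0 counts in the other 4 libraries were taken as silent (1042 genes). Of these, 62.3% had a count in KD replicate 1 and 58.8% in NC replicate 1, with medians of 1.54 and 1.17 counts per kb and 95th percentiles of 13.5 and 11.8.

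FOXO1 lay within that background, at 4.01 and 2.41 counts per kb, and 69.1% and 59.98% of the silent genes were lower. BACH2, at 15.8 and 13.7 counts per kb, was above 97.03% and 97.1% of the silent genes. That set leaves out genes with a few counts in the other 4 libraries. Among such paralogs, PAX2 (0 to 4 counts there) had 15.7 and 16.3 counts per kb in KD and NC replicate 1. TCF7L1 (1 to 7 counts there) had 19.7 and 18.6. EBF2, FEV and FOXO6 were below BACH2 in both libraries, and EBF4 in NC replicate 1 only. The part of background in the replicate 1 level of BACH2 was not tested. IKZF3, at 30.5 and 24.4 counts per kb, was above 99.9% of the silent genes in both libraries, and the other 7 members were above all of them. In replicate 1 the level of FOXO1 therefore could not be told apart from that of genes silent elsewhere. In the other 4 libraries FOXO1 had 0.184 to 0.517 TPM.

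**Figure D3:**
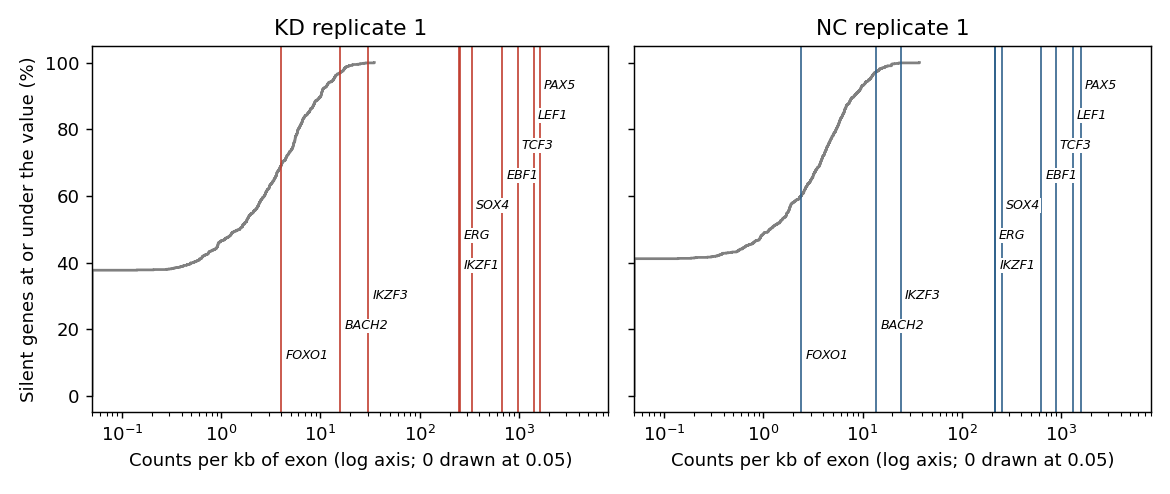
Counts per kb of exon in the replicate 1 libraries (log axis): the grey curve is the cumulative share of 1042 genes with 0 counts in the other 4 libraries, and vertical lines mark the 10 factors. FOXO1 crosses the curve in its middle, BACH2 and IKZF3 near its top, and the other 7 factors lie to its right.

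The comparison of KD with NC asks how the factors' RNA levels differ between cells given the AK_8_2 duplexes and cells given the non-targeting one. No member passed the test: edgeR's quasi-likelihood test called 0 of the 10 at a Benjamini-Hochberg adjusted p under 0.05 (all adjusted p 1.00), where 0.0% of 16929 tested genes were called. At an unadjusted p under 0.05 the counts were 0 members and 52 genes (0.307%). With the replicate number as a block, again 0 members passed (edgeR adjusted p 0.903 for SOX4 and 0.999 for the others), where 0.171% of all genes did, and 1 member, SOX4, was under 0.05 unadjusted, where 4.97% of all genes were. DESeq2 and limma-voom called 0 members as well. CPM values of KD and NC overlapped for every member. They did not overlap for 3.43% of all tested genes, too small a share for 10 members to show a contrast.

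The core factors moved by little. PAX5 averaged 1091 ± 209 CPM over the KD libraries and 1095 ± 172 over the NC libraries (n = 3 each, SD). Its log2 fold change was -0.0045 (SE 0.19). The 95% interval of PAX5 was -0.46 to 0.45 in the fit on group alone and -0.11 to 0.09 in the blocked fit. EBF1 averaged 295 ± 55.5 CPM (KD) and 295 ± 51.3 (NC), with intervals of -0.44 to 0.45 and -0.09 to 0.10 in the same order. TCF3 had 430.1 ± 84.9 and 424 ± 78.3 CPM, with intervals of -0.45 to 0.49 and -0.07 to 0.11. Within replicate numbers 1, 2 and 3, PAX5 differed by -0.11, 0.13 and -0.06 on the log2 scale, EBF1 by -0.04, 0.03 and 0.01, and TCF3 by -0.01, 0.05 and 0.02. None of these 3 genes was shifted the same way in all replicate numbers.

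Of the 10 members, 8 had a 95% interval that stayed within 1.5-fold up or down without the block (50.7% of all tested genes did) and 9 with it (66.5% of all genes). Without the block the share was 76.5% of the tested paralogs and 86.4% of the tested partners and regulators. It was 72% of other tested haematopoietic factors and 46.7% of tested B-lineage target genes. Genes matched to the members by level were not compared. Among the members, the exceptions were BACH2 (-1.30 to 1.40 without the block, -0.34 to 0.43 with it) and FOXO1 (-1.51 to 1.30 and -1.11 to 0.74). For both genes the unblocked interval takes in a change of 1 log2 unit up or down, so a change of that size was not detectable in it. Within replicate numbers 1, 2 and 3, BACH2 differed by 0.07, 0.42 and -0.41, and FOXO1 by 0.55, -0.32 and -0.76 on the log2 scale, so neither kept a direction.

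SOX4 was the only member higher in KD in all 3 replicate numbers, with log2 differences of 0.26, 0.05 and 0.09 (13.1% of all tested genes were higher in all 3). It had 111, 121 and 142 CPM in KD and 93.2, 117 and 133 CPM in NC. The groups overlapped, the difference of replicate 1 was the largest, and the log2 fold change was 0.12 (SE 0.16) without the block and 0.13 (SE 0.05, 95% interval 0.02 to 0.24) with it, uncalled in both fits. Without KD replicate 3 the unblocked value was -0.01 and without NC replicate 1 it was -0.0035. With a whole pair left out of the blocked fit it ranged from 0.07 to 0.16, and without both replicate 1 libraries it was 0.07 in the unblocked fit. Its relatives SOX11 and SOX12 stood at -0.05 each without the block.

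LEF1, ERG, IKZF1 and IKZF3 had log2 fold changes of 0.02, 0.04, 0.02 and 0.02, with intervals without the block that reached at most 0.48 (ERG) above and -0.40 (ERG) below 0. IKZF3 differed by 0.18, -0.01 and -0.16 within replicate numbers 1, 2 and 3, which made its direction depend on the replicate.

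**Figure D4:**
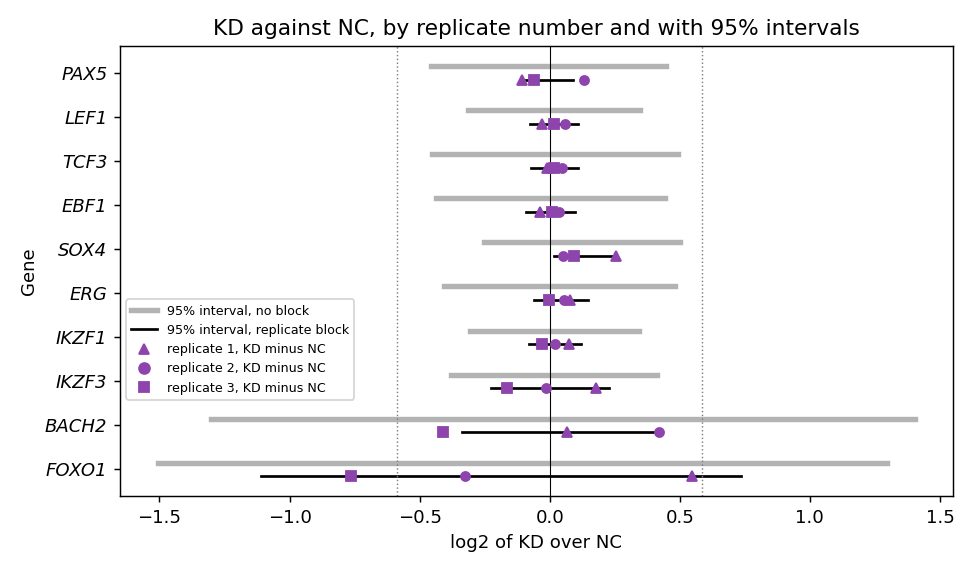
Log2 of KD over NC for each factor: purple symbols are the differences within replicate numbers, grey bars the 95% intervals without and black lines those with the replicate number as a block, and dotted lines mark a 1.5-fold change. All grey bars cross 0, and those of BACH2 and FOXO1 pass the dotted lines on both sides.

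Lists of genes around the members held no called gene in either edgeR fit. Of the paralogs, 17 of 23 were tested, 0 were called in either direction and the median log2 fold change was -0.02, beside 0.02 for the 10 members and -0.0036 for all tested genes. FOXO3 (-0.09, SE 0.12) and IKZF4 (0.06, SE 0.12) had the smallest unadjusted p among them. Of the partners and regulators, 22 of 23 were tested and 0 called (median -0.0084). The small MAF protein MAFF, a partner of BACH factors, stood at 0.47 (SE 0.77) on 21 to 108 counts. Within replicate numbers 1, 2 and 3 MAFF was higher in KD by 0.17, 0.55 and 1.34, and its blocked value was 0.62 (95% interval 0.09 to 1.14, edgeR adjusted p 0.898). The inhibitor ID3 stood at 0.07 (SE 0.13). MTA2, a subunit of the NuRD complex that works with Ikaros, was with ID3 the most abundant of the list (197 ± 15.6 TPM, SD, n = 6).

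Other haematopoietic factors gave 25 tested of 28, 0 called and a median of 0.05. The most abundant were MEF2C (288 ± 17.0 TPM, SD, n = 6), a factor of lymphoid progenitors, and the ETS factor ELF1 (219 ± 14.1). POU2F2 (OCT2, 0.43, SE 0.35) and XBP1, a plasma cell factor (0.08, SE 0.09), had the smallest unadjusted p. POU2F2 was higher in KD by 0.78, 0.20 and 0.05 within replicate numbers 1, 2 and 3 (edgeR adjusted p 0.966 with the block). B-lineage genes known as targets of PAX5, EBF1 or TCF3 gave 15 tested of 19, 0 called and a median of 0.01. CD79A, a B-cell receptor signalling chain and the most abundant of the list, stood at 0.16 (SE 0.11) and IGLL1, part of the surrogate light chain, at 0.27 (SE 0.17), the smallest unadjusted p of this list. Both, like POU2F2, MAFF, XBP1 and MEF2C, were higher in KD within every replicate number, as were 13.1% of all tested genes. Except for MEF2C, these genes were named for a small unadjusted p in these same data. IGLL1 differed by 0.28, 0.25 and 0.28 and CD79A by 0.13, 0.24 and 0.11 on the log2 scale. In the blocked fit IGLL1 had a 95% interval of 0.12 to 0.42 and CD79A one of 0.06 to 0.27, and neither passed (edgeR adjusted p 0.344 and 0.534). The interleukin 7 receptor gene IL7R, which FOXO1 can activate, had 45.5 ± 10.1 TPM (SD, n = 6), while BLNK, an adaptor of the pre-B receptor, had at most 0.283 TPM outside replicate 1.

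By profile over the 6 libraries, the genes most like PAX5 were HNRNPUL2, SAP130 and TTC7A, whose log2 CPM, centred on each gene's mean, differed from that of PAX5 by a root mean square of 0.0267 to 0.0276. Among 8906 protein-coding genes of at least 10 CPM the median distance was 0.182. TCF3 (0.0517), EBF1 (0.0666), ERG (0.0704), IKZF1 (0.0967), SOX4 (0.136) and LEF1 (0.146) were closer to PAX5 than that median, IKZF3 was farther (0.389), and BACH2 and FOXO1 were under 10 CPM and not compared. These profiles share the step between replicate 1 and the other libraries, and its part in the distances was not tested.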

How the data were processed

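Total RNA from 6 SEM libraries (3 KD, 3 NC, grouped by sample title) was sequenced after globin depletion, per the labels' protocols. The authors deposited a file of whole read counts by Ensembl gene for each library. Its 5 summary lines name no gene and entered neither library sizes nor tests; genes hold 33.5% to 60.2% of records. The submitters' processing notes name HTSeq 0.11.1, STAR 2.7.10a, FastQC 0.11.8, DESeq2 and hg38. Annotation release, strand setting and trimming: not given in the sources used here.

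Symbols came from a gene name table that held 62686 of the 62703 IDs, and positions and exon lengths from GENCODE 29 (GRCh38, 58220 IDs), which may not be the release used in counting. TPM were computed from the counts and all exon bases of a gene, and CPM with TMM-normalised library sizes. KD and NC were compared with edgeR 4.0.16 in R 4.3.3 (filterByExpr, TMM, robust quasi-likelihood test, group as the only term), adjusted over 16929 genes at 0.05; log2 differences within a replicate number used a prior count of 2. DESeq2 1.42.0, limma 3.58.1, other scaling, no filter, left-out libraries and a replicate block were alternatives. The scripts were tested on simulated data. The labels call the replicates independent without naming cultures, so p-values measure the spread between these libraries. Sampling noise was exceeded between all libraries of a group (20.2 to 82.0 as chi-square over its degrees of freedom).

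The groups share replicate numbers. Deviations from the group means correlated across genes at 0.89, 0.62 and 0.61 for the pairs numbered 1, 2 and 3. All exceed 0.1, so blocked values are given beside the unblocked ones, although the comparison has group as its only term. KD replicate 2 also correlated with NC replicate 3 (0.59) and KD replicate 3 with NC replicate 2 (0.55), and it is replicate 1 that chiefly carries the pairing.

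The members, the gene lists and the tests were chosen with earlier results of these data known. Genes were named by a rule: all members; per list up to 4 called genes, or else 2 genes of smallest p and 2 of highest mean TPM; paralogs beside their member; and the 3 genes most like PAX5. ID1, ID2, ID4, CTNNB1, CRBN, IL7R and BLNK were named outside it after their values were seen. A gene and a sequence that the rule would name are not reported here.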

Additional observations from a re-analysis of the deposited data

How the results depend on the processing

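No member passed in any of the 15 alternatives, which gave 150 fold changes. Over all genes, 29 passed with the replicate number as a block (pairing) and 1 with DESeq2, against 0 without. Leaving out 1 library gave 0 calls each. With the block, leaving out replicate 1, 2 or 3 gave 5, 119 and 73 calls. With that block, members turned sign without replicate 1 (IKZF3 -0.085, IKZF1 -0.0030, PAX5 0.037), without replicate 2 (TCF3 -0.012, BACH2 -0.14, LEF1 -0.022, IKZF3 -0.0057, EBF1 -0.029) and without replicate 3 (PAX5 0.017, FOXO1 0.16). Signs of uncalled members turned in 44 of the 150 values. Some of these values stayed near 0: PAX5 at 0.0011 with DESeq2 and with its size factors in edgeR, IKZF3 at -0.0040 and EBF1 at -0.0060 with no filter. Others were larger, such as BACH2 at -0.56 without KD replicate 1 and EBF1 at -0.16 without KD replicate 3. With libraries left out the values ran from -0.12 to 0.15 for PAX5, -0.16 to 0.17 for EBF1, -0.12 to 0.18 for TCF3, -0.083 to 0.14 for IKZF1, -0.15 to 0.091 for IKZF3, -0.12 to 0.15 for LEF1 and -0.11 to 0.18 for ERG. They ran from -0.012 to 0.27 for SOX4, -0.56 to 0.65 for BACH2 and -0.72 to 0.16 for FOXO1. Leaving out both replicate 1 libraries without the block, chosen after seeing the data, gave 0.034 for PAX5, -0.0043 for IKZF1 and -0.084 for IKZF3. The cause was not tested. With replicate 1 left out, the mean of BACH2 was 0.882 TPM rather than 1.495, and that of FOXO1 0.295 rather than 0.391. The TPM of a member moved by more than its SD in 13 of 50 alternatives, all from another gene length or from a total over protein-coding genes only. Counts of 11 to 26 limit FOXO1.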
